A study of Mus musculus with 16 samples.

Results

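Chromatin accessibility was examined at 9 genes of macrophage arginine, itaconate and glucose metabolism, namely Nos2, Arg1, Slc7a2, Ass1, Acod1, Hif1a, Slc2a1, Hk2 and Pfkfb3. The measurement was ATAC-seq, which reports stretches of DNA that the Tn5 transposase can enter. Overlapping peaks of the 4 deposited peak lists were merged into 37648 regions, and the 78 regions whose midpoint lay at most 100 kb from the transcription start site (TSS) of a member gene were taken. The cells were bone marrow-derived macrophages (BMDMs) of female C57BL/6J mice aged 8 to 10 weeks, grown in L-cell conditioned medium and deprived of serum for 1 day before treatment. Cells of the Veh group received DMSO for 3 h and cells of the T0 group received 500 nM of T0901317 (T0), a synthetic agonist of the liver X receptor (LXR), for the same time. The LPS group received DMSO and the T0-LPS group received T0 for 3 h, and both were then stimulated with 10 ng/mL of lipopolysaccharide (LPS), a bacterial ligand of TLR4, for 2 h in the same medium. Groups with and without LPS therefore also differed in their time in culture. There were 4 libraries of 50000 cells in each group, but peaks were called on the 4 libraries of a group together, so that each group is 1 list, no value has a replicate check and no p-value is given.

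A region was called LPS-opened when the LPS list held a peak there and the Veh list did not, and LPS-closed in the converse case. T0-closed and T0-opened regions were defined in the same way from Veh and T0, and T0-closed-in-LPS and T0-opened-in-LPS regions from LPS and T0-LPS. The score of a peak, as the peak caller gave it, depends on how deeply a group was sequenced. It is therefore read as a percentile, the share of peaks in the same list with that score or a lower one. Where 4 percentiles are given, they belong to Veh, T0 alone, LPS alone and both agents (T0-LPS). The lists held 29839 to 35551 peaks, with median scores from 292 in T0-LPS to 372 in Veh, and depth per library is unknown. A peak can also be missing because the authors kept only peaks at macrophage enhancers. Peak names carry running numbers, and a number that is skipped between neighbouring peaks was taken as a called peak that this filter removed. For an absent peak, "no skipped number" means that the caller's numbering left no place for one there. A skipped number places the removed peak only between the nearest kept peaks of that list. These can lie far apart, so the removed peak need not have been at the region itself. All 8 macrophage markers looked for had a peak within 1 kb of their TSS in every list, among them Csf1r, Spi1 and Adgre1. None of 4 T cell and none of 4 neutrophil markers did. Of 4 B cell markers Ms4a1 had one in every list, and of 4 fibroblast markers Col1a1 had one in the Veh list alone.

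Macrophages stimulated through TLR4 are known to rewire their metabolism. Inducible nitric oxide synthase, encoded by Nos2, turns arginine into nitric oxide and citrulline. Arginase, encoded by Arg1, competes for the same arginine and makes ornithine and urea. Slc7a2 imports arginine, and Ass1 recycles citrulline towards arginine. Acod1 makes itaconate from cis-aconitate, an intermediate of the tricarboxylic acid cycle, and itaconate inhibits succinate dehydrogenase. Hif1a encodes the oxygen-regulated subunit of the hypoxia-inducible factor, which drives genes of glucose uptake and glycolysis such as Slc2a1 (a glucose transporter), Hk2 (hexokinase) and Pfkfb3 (which makes the activator of phosphofructokinase).

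Peaks at the starts of Nos2 and Acod1 were present in both lists from LPS-treated cells and in neither list without LPS, and a far weaker one at the start of Ass1 was present with LPS alone. Sequences of these and of the other regions that the results turn on are given first, 5′ to 3′ on the strand of the gene, read from GRCm38. Capitals mark matches to the 8 consensus motifs searched, on either strand. The motifs were NF-kB, AP-1 (TGACTCA or TGAGTCA), PU.1 (GAGGAAGT), C/EBP (TTACNNAA or TTGCNNAA), the nuclear receptor half-site (AGGTCA), the hypoxia response element (ACGTG or GCGTG), the STAT GAS motif (TTCNNNGAA) and ISRE, the interferon-stimulated response element. Regions that contain a TSS are printed up to the base before it, and 240 bases at the centre are printed of regions over 300 bases.
Nos2 promoter, LPS-opened (chr11:78920572-78920786, plus strand): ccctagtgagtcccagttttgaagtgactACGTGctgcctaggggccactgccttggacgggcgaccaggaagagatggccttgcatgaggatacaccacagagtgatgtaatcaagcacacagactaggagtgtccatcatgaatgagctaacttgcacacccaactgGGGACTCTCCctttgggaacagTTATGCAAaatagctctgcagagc
Nos2 upstream region, LPS-opened (chr11:78886991-78887230, plus strand): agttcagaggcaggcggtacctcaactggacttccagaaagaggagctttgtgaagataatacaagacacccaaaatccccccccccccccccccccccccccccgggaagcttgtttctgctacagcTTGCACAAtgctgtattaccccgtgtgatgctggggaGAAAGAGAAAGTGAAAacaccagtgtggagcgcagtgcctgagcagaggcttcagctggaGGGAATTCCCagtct
Acod1 promoter, LPS-opened (chr14:103046777-103046976, plus strand): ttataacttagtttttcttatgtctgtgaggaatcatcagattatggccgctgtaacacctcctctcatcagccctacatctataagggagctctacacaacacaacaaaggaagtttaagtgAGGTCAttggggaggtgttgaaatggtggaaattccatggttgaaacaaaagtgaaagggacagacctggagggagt
Acod1 upstream region, LPS-opened (chr14:103039431-103039619, plus strand): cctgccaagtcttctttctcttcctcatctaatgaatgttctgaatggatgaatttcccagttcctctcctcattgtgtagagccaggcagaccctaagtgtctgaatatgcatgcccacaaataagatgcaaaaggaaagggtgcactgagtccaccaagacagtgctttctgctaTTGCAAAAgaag
Ass1 promoter, LPS-opened (chr2:31469966-31470206, plus strand): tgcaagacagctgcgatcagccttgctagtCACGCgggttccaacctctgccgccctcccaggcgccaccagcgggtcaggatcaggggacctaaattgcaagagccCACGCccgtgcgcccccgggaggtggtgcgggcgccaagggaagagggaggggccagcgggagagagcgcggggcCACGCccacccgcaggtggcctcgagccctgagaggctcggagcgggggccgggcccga
Ass1 upstream region, LPS-opened (chr2:31447650-31447854, plus strand): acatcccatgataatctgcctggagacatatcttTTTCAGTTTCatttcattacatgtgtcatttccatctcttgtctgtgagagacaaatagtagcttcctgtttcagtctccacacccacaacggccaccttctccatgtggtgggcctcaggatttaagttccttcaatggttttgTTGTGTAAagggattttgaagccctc
Hif1a upstream region, LPS-opened (chr12:73818860-73819115, plus strand): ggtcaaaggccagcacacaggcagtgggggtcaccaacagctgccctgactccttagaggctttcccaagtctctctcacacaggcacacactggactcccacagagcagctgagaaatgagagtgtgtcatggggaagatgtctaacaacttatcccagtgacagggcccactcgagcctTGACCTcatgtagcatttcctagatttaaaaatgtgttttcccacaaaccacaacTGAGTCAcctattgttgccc
Acod1 upstream region, LPS-closed (chr14:103034191-103034402, plus strand): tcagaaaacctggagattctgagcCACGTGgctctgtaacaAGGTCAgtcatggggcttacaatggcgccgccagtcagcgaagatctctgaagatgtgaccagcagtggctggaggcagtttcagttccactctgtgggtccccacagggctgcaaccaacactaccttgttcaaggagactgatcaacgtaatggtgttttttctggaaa
Arg1 promoter, LPS-closed (chr10:24928127-24928366, minus strand): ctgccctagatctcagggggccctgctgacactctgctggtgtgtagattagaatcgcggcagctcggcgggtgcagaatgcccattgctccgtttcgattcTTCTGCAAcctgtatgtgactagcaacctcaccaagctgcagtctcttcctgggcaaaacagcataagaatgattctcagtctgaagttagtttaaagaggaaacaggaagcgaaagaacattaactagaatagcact

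Nos2 (chromosome 11, 78920787 to 78960254, plus strand) had 6 regions within 100 kb. A region that covers the TSS (chr11:78920572-78920826, midpoint at -88 bp) had no peak in Veh or T0. Its score was 164 in LPS, at percentile 22.3, and 199 in T0-LPS, at percentile 33.1. Neither Veh nor T0 had a skipped number there, so that the caller made no peak at the Nos2 promoter without LPS. The printed promoter sequence contained an NF-kB match, GGGACTCTCC, whose first base lay at -46 bp (chr11:78920741-78920750), and a C/EBP match, TTATGCAA, at -24 bp. It also held ACGTG, the hypoxia response element, at -186 bp.

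A second LPS-opened region of Nos2 lay in intergenic DNA at -33676 bp (chr11:78886796-78887425). It had a score of 384 in LPS, at percentile 58.4, and of 491 in T0-LPS, at percentile 73.8. This was the highest percentile in LPS of the 8 LPS-opened regions at the 9 genes. No peak was present in Veh, where 1 number was skipped, or in T0, where none was. The sequence held the NF-kB match GGGAATTCCC (chr11:78887216-78887225), the C/EBP match TTGCACAA and a pair of ISRE matches, GAAAGAGAAA and GAAAGTGAAA, that overlap each other. At both Nos2 regions the percentile was higher in T0-LPS than in LPS, by 10.8 points at the promoter and by 15.4 points upstream.

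The remaining Nos2 regions showed a different pattern. The region at -4192 bp (chr11:78916434-78916756, intergenic) had a peak in every list, at percentile 52.9 in Veh, 32.9 with T0, 41.0 with LPS and 39.4 with both. Its rank was thus highest in vehicle-treated cells, and the difference of -20.0 points between T0 and Veh was -11.5 points when only regions in all lists were ranked. A weak peak in an intron of the neighbouring gene Lgals9, 62259 bp downstream of the Nos2 TSS, was present in Veh (percentile 9.35) and LPS (8.35) and absent from both lists with T0, with no skipped number in either. The strongest region near Nos2 was the Lgals9 promoter, 64201 bp downstream, at percentile 89.4 in Veh, 85.9 with T0, 82.6 with LPS and 89.1 with both. Of the 6 regions, 3 had Nos2 as the nearest protein-coding TSS.

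Arg1 (chromosome 10, 24915221 to 24927484, minus strand) differed from Nos2 in that it had no LPS-opened region. Of its 5 regions, 4 were present throughout. The region at -2902 bp (chr10:24930152-24930620, intergenic) was at percentile 90.1 in Veh, 92.2 with T0, 82.9 with LPS and 83.6 with both, and held C/EBP and half-site matches. The region at -22992 bp (chr10:24950214-24950738, intergenic) was at percentile 88.1 in Veh, 86.9 with T0, 91.1 with LPS and 75.2 with both. Among the regions that the 4 lists shared, the highest rank near Arg1 was at the promoter of Med23, which lay 57509 bp downstream, at percentile 99.6 in Veh and 98.9 in LPS.

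The region nearest the Arg1 TSS was the only one absent from a list. It lay at -763 bp (chr10:24928064-24928430, in an intron of Gm36172) and was LPS-closed. The score was 190 in Veh, at percentile 23.3, and 83 in T0, at percentile 3.20. No peak was found in LPS, with no skipped number, and T0-LPS had a weak one with a score of 82, at percentile 3.93. The peak thus ranked highest in Veh, lay near the bottom of both lists with T0 and was missing with LPS alone. Its printed sequence held 1 motif match, TTCTGCAA (C/EBP).

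Ass1 (chromosome 2, 31470207 to 31520672, plus strand) had 4 regions, all with Ass1 as the nearest protein-coding TSS. The Veh list held a peak at 2 of them, T0 at 1, LPS at 4 and T0-LPS at 3. A region at the TSS (chr2:31469966-31470227, midpoint at -110 bp) had a peak only in the LPS list. That peak was among the weakest there, with a score of 51 and at percentile 0.247. Between the nearest kept peaks, the Veh numbering skipped 1 number, and those of T0 and T0-LPS skipped none. In Veh the nearest kept peak upstream lay at -23917 bp. The promoter sequence, of high GC content (74.0% in the central 200 bp), contained 3 matches to the hypoxia response element, each read as CACGC on the gene strand, and none to the other motifs.

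Upstream of Ass1, 3 regions lay in introns of Hmcn2. The region at -23917 bp (chr2:31446139-31446441) had a score of 111 in Veh, at percentile 7.20, and no peak in T0, where no number was skipped. It had a score of 277 in LPS, at percentile 43.6, and of 282 in T0-LPS, at percentile 48.5. A weak Veh peak was thus missing with T0 in resting cells, and in stimulated cells the rank differed by 4.9 points between the lists with and without T0. This region held NF-kB and PU.1 matches in its central 200 bp. The region at -22455 bp (chr2:31447650-31447854) was LPS-opened, with a score of 100 in LPS, at percentile 6.54, and of 50 in T0-LPS, at percentile 0.273. The region at -27570 bp (chr2:31442456-31442817) had peaks throughout, at percentile 62.6 in Veh, 49.0 with T0, 61.0 with LPS and 46.1 with both, and so ranked lower in both lists with T0.

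Slc7a2 (chromosome 8, 40862396 to 40922308, plus strand) had 2 regions, neither of them opened by LPS. The promoter region (chr8:40862151-40862892, midpoint 126 bp downstream of the TSS) had a peak in every list. It was at percentile 38.1 in Veh, 29.2 with T0, 46.0 with LPS and 17.9 with both. The fall of 28.1 points between LPS and T0-LPS was the largest of the 54 member regions present in all lists. When only regions in all lists were ranked, the change was -23.9 points, and the Slc2a1 region 72911 bp downstream changed more, by -26.4 points. The other Slc7a2 region, at the TSS of Pdgfrl 63868 bp downstream, held weak peaks in Veh (percentile 2.92) and LPS (7.81) and none with T0. Between the nearest kept peaks, 3 numbers were skipped in T0 and 2 in T0-LPS.

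**Figure D1:**
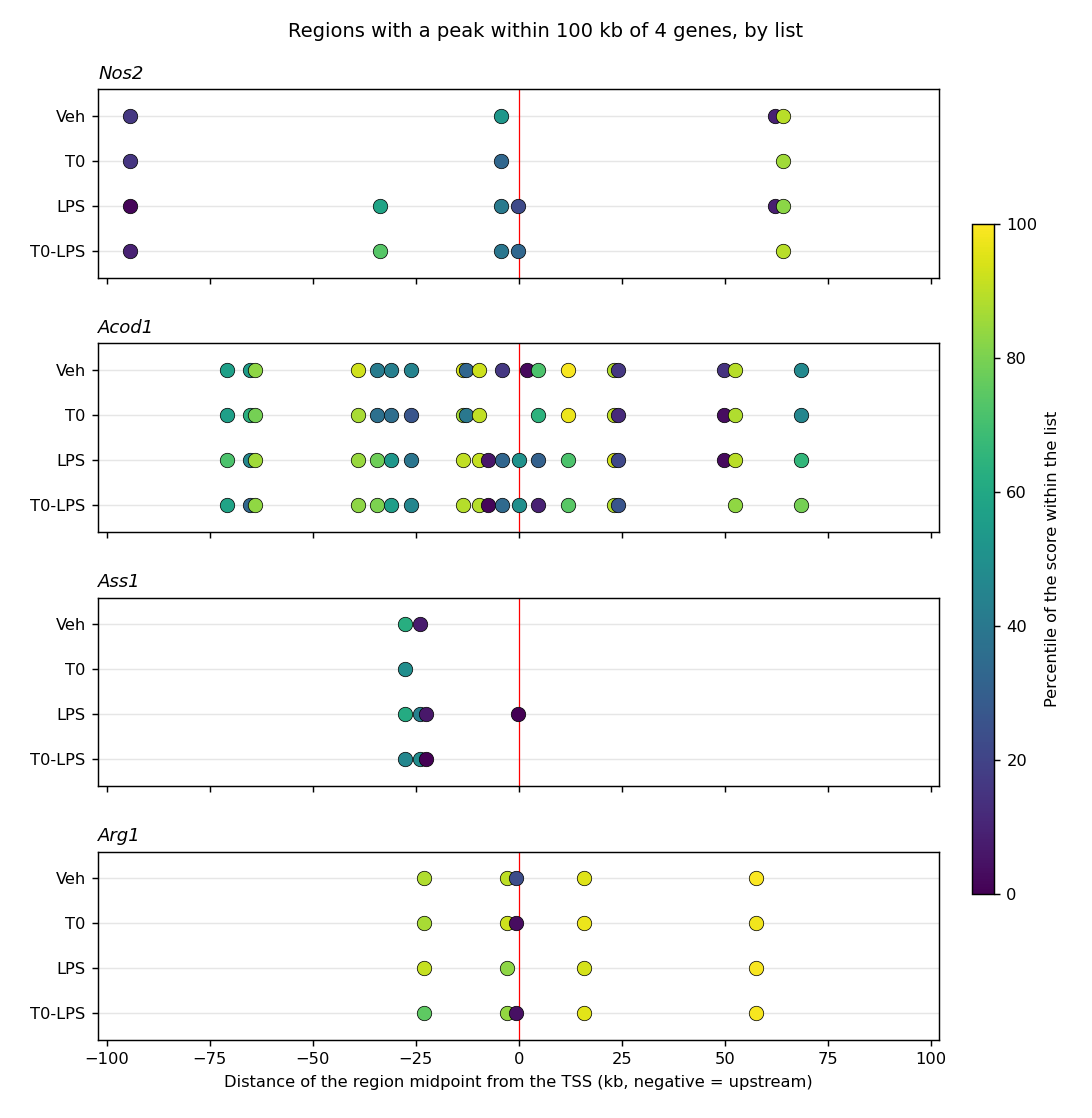
Regions within 100 kb of Nos2, Acod1, Ass1 and Arg1 in each of the 4 pooled lists. The x axis gives the distance of the region midpoint from the TSS (red line) in kb, each point is a region with a peak in that list, and colour gives the percentile of its score. Points at the TSS of Nos2 and Acod1 appear in LPS and T0-LPS, the one at Ass1 in LPS alone, and the one nearest the Arg1 TSS in Veh, T0 and T0-LPS.

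Acod1 (chromosome 14, 103046977 to 103056573, plus strand) had 21 regions, the most of the 9 genes, and 10 of them had Acod1 as the nearest protein-coding TSS. All lists held a peak at 15 of the 21. A region across the TSS (chr14:103046777-103047154, midpoint at -11 bp) was LPS-opened. Its score was 326 in LPS, at percentile 51.0, and 286 in T0-LPS, at percentile 49.3. The promoter peak was therefore near the middle of both lists from LPS-treated cells, and neither Veh nor T0 had a peak or a skipped number there. The printed promoter held a half-site match, AGGTCA, at -77 bp (chr14:103046900-103046905), and none to NF-kB. A weaker LPS-opened region at -7452 bp (chr14:103039431-103039619, intergenic) was at percentile 6.07 in LPS and 1.41 in T0-LPS.

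Peaks were also lost near Acod1 with LPS. The region at -12680 bp (chr14:103034191-103034402, intergenic) had a score of 243 in Veh, at percentile 32.5, and of 245 in T0, at percentile 40.2. It had no peak and no skipped number in LPS or T0-LPS. Its printed sequence held a half-site match, AGGTCA, and CACGTG, which is read as a hypoxia response element on both strands, so that those matches overlap. An intronic region 1988 bp downstream of the TSS (chr14:103048855-103049074) had a weak peak in Veh alone, at percentile 2.12.

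At 2 further regions the peak stayed but its rank fell. The intronic region 4586 bp downstream (chr14:103051395-103051730) was at percentile 71.7 in Veh, 64.4 with T0, 30.6 with LPS and 9.21 with both. This span of 62.4 points was the largest of the 54 shared member regions, and no motif match was found in it. The intergenic region 12037 bp downstream (chr14:103058084-103059944), the strongest near Acod1 in Veh, was at percentile 99.0 in Veh, 97.0 with T0, 71.6 with LPS and 74.2 with both. Here the covered length rose from 1063 bp in Veh to 1861 bp in LPS while the rank fell, and T0-LPS held 3 separate peaks within it.

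Other Acod1 regions rose in rank with LPS. The region at -34271 bp (chr14:103012403-103013009, in an intron of 4933432I03Rik) was at percentile 41.5 in Veh, 36.5 with T0, 78.0 with LPS and 80.1 with both, and held AP-1 and hypoxia response element matches in its central 200 bp. The region at -30892 bp went from percentile 42.7 in Veh and 35.8 in T0 to 52.9 in LPS and 55.8 in T0-LPS. The region in an intron of Mycbp2, 68559 bp downstream, went from percentile 47.0 in Veh and 45.9 in T0 to 65.8 in LPS and 79.1 in T0-LPS. In all of these the ranks in both lists with LPS lay above those in both lists without it. The region at -3985 bp (chr14:103042848-103043136, intergenic) was at percentile 16.2 in Veh, absent from T0 with no skipped number, and at 32.6 in LPS and 34.0 in T0-LPS. Like the Ass1 region at -23917 bp, it was missing with T0 in resting cells only. Farther away, the region at -65129 bp, in a coding exon of Kctd12, fell to percentile 33.0 in T0-LPS from 54.5 in Veh, 62.8 in T0 and 46.3 in LPS. A weak region 49914 bp downstream was absent from T0-LPS alone, where 1 number was skipped.

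Hif1a (chromosome 12, 73901375 to 73947530, plus strand) had 7 regions, 5 of them present in every list. Its strongest region did not lie at the first annotated TSS but at a second transcript start (chr12:73907411-73908252, midpoint 6457 bp downstream of the first). It was at percentile 94.2 in Veh, 92.7 with T0, 92.2 with LPS and 91.0 with both. Of the 2 LPS-opened regions of Hif1a, the stronger lay at -82387 bp (chr12:73818860-73819115, intergenic), at percentile 26.5 in LPS and 30.0 in T0-LPS, with a Veh numbering that skipped 1 number. The printed sequence held the AP-1 match TGAGTCA and the half-site TGACCT. The other lay 7201 bp downstream of the first TSS and 672 bp downstream of the second transcript start (chr12:73908483-73908668, intron). It was present only in the LPS list, at a score of 53 and percentile 0.301, and contained none of the motifs. The shared region at -20704 bp was at percentile 65.4 in Veh, 50.9 with T0, 76.2 with LPS and 73.3 with both.

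The promoters of the glucose genes Slc2a1, Hk2 and Pfkfb3 were open in every list, and the regions nearest their TSSs spanned 5.64, 3.76 and 2.08 percentile points. The Slc2a1 promoter (chr4:119108468-119109446) was at percentile 71.0 in Veh, 70.2 with T0, 70.3 with LPS and 65.4 with both. At the Hk2 promoter (chr6:82774304-82774823) the percentiles were 94.0, 94.9, 97.3 and 93.5 in the same order. The Pfkfb3 promoter (chr2:11553203-11554225) was at percentile 95.1 in Veh, 95.5 with T0, 93.4 with LPS and 93.5 with both. None of the 8, 13 and 12 regions near these genes was LPS-opened or T0-opened. This depended on the setting. With a reciprocal overlap of 50%, 2 regions at Slc2a1 and 1 at Hk2 were T0-opened. With lists cut to equal length, 1 region at Pfkfb3 was LPS-opened. A second region at the start of Hk2, chosen after its values were seen, lay 818 bp downstream of the TSS (chr6:82773390-82773882, intron) and ranked lower, at percentile 26.8 in Veh, 18.7 with T0, 14.6 with LPS and 30.6 with both. Its rise of 16.1 points between LPS and T0-LPS was the largest among the shared member regions. When only regions in all lists were ranked, its rise was 16.5 points, and others rose more, by up to 17.9 points at the Acod1 region 68559 bp downstream.

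Near Slc2a1, the region at -25850 bp (chr4:119082571-119083150, intergenic) had a peak in Veh (percentile 29.7) and LPS (35.0) and none in either list with T0, in each of which 2 numbers were skipped. Within introns of Slc2a1, a pair of regions moved in opposite directions with LPS. The one 17127 bp downstream was at percentile 44.8 in Veh, 28.4 with T0, 63.3 with LPS and 56.5 with both. The one 18700 bp downstream was at 63.8, 56.9, 35.5 and 47.5. In an intron of Ermap, 72911 bp downstream, the percentile was 76.9 in Veh, 61.9 with T0, 70.1 with LPS and 44.7 with both, lower with T0 in both backgrounds. At the promoter of Svbp, 86695 bp downstream, it was 42.0, 31.0, 44.4 and 53.6. The strongest region nearby, at the promoter of Zfp691, stayed between percentile 99.3 and 99.5.

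Hk2 (chromosome 6, 82725025 to 82774454, minus strand) had 13 regions, of which 3 were T0-closed. The strongest of these, at -97641 bp (chr6:82871969-82872220, intergenic), was at percentile 31.2 in Veh and 19.5 in LPS and was absent from T0 and T0-LPS, where 1 number was skipped in each. The others, at -98079 and -30754 bp, held a weak peak in Veh alone, at percentiles 1.37 and 2.92. At -98079 bp, 1 number was skipped in each of the other lists, and at -30754 bp none was. In T0 and T0-LPS, the number skipped at -98079 bp was the one also counted at -97641 bp, as no kept peak lay between these regions. A region at -47628 bp (chr6:82821875-82822288) was lost in T0-LPS only, from percentile 32.9 in Veh, 30.2 in T0 and 42.1 in LPS, with no skipped number. Conversely, a region at -6764 bp had a peak in T0-LPS only, at percentile 11.2, with 1 skipped number in Veh and none in T0 or LPS. The shared region 7734 bp downstream was at percentile 44.3 in Veh, 48.1 with T0, 35.0 with LPS and 22.1 with both. The strongest Hk2 region in Veh, at -89216 bp, was at percentile 98.0 there and at 91.6 to 94.5 in the other lists.

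Pfkfb3 (chromosome 2, 11471433 to 11554077, minus strand) had 12 regions and a pair of opposite changes with LPS. The region 23812 bp downstream (chr2:11529989-11530541, in an exon of Gm10851) was at percentile 47.2 in Veh, 39.7 with T0, 77.6 with LPS and 72.2 with both. The region at -34116 bp (chr2:11588018-11588368, in an intron of Rbm17) was at percentile 64.2 in Veh, 53.1 with T0, 18.7 with LPS and 15.6 with both. In both, the lists with LPS stood together and apart from those without it. Of the weaker regions in introns of Pfkfb3, the one 5289 bp downstream had a peak in Veh (percentile 6.83) and LPS (18.5) and none with T0. There, no number was skipped in T0 and 1 in T0-LPS. The one 9546 bp downstream went from percentile 32.9 in Veh to 21.5 in T0 and 5.37 in LPS and was absent from T0-LPS, where 1 number was skipped. The highest percentile in Veh, 97.3, was at -83193 bp, close to Il2ra.

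**Figure D2:**
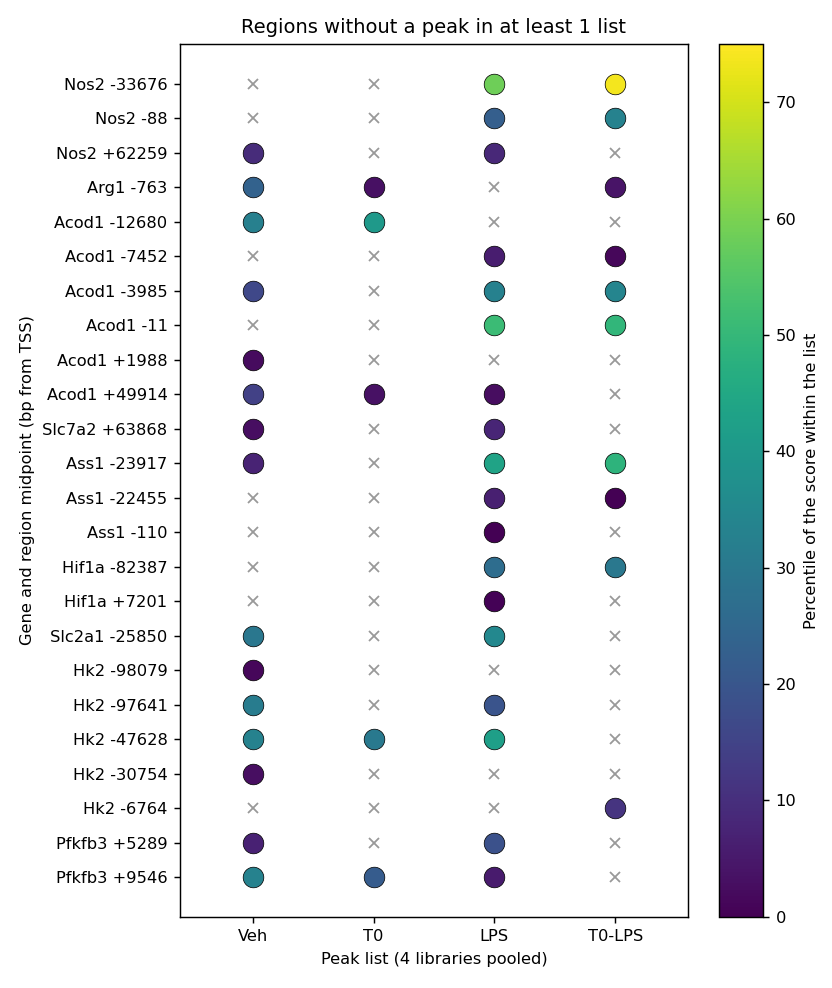
The 24 member regions without a peak in at least 1 list. Rows are genes with the distance of the region midpoint from the TSS in bp, columns are the pooled lists, filled points are peaks coloured by percentile of the score, and grey crosses mark absent peaks. The regions with peaks in LPS and T0-LPS alone include those at the Nos2 and Acod1 starts, and 5 regions have peaks in Veh and LPS alone.

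Counted over the 9 genes, LPS-opened regions were 8 of 72 regions with an LPS peak (11.1%, Wilson 95% interval 5.74 to 20.4%), beside 6.14% of all regions. Intervals cover counting error only, and the interval includes the background. There were 2 each at Nos2, Acod1, Ass1 and Hif1a and none at Arg1, Slc7a2, Slc2a1, Hk2 or Pfkfb3. Of the 8, 4 lay within 1 kb of an annotated TSS of some gene (50.0%), beside 24.1% of all LPS-opened regions. An LPS-opened region lay within 1 kb of the gene's own TSS in 3 of the 9 genes, beside 1.62% of 21951 protein-coding genes, and within 100 kb in 4 of the 9, beside 23.9%. The 9 genes were chosen with earlier results of these data known, so these shares describe them and test nothing. Genes without any region near the TSS also count among the 21951, whereas 8 of the 9 had a region within 1 kb. Only the first annotated TSS was used, so the Hif1a region 672 bp from its second transcript start is not in the count within 1 kb. With an LPS score of at least 200, a setting chosen after seeing the data, the count within 1 kb fell from 3 to 1, Acod1, beside 0.118% of all genes, and with lists of equal length it was 2. At 3 of the 8 (37.5%), both Nos2 and Acod1 promoters and the Acod1 region at -7452 bp, Veh had no skipped number, beside 61.3% of all LPS-opened regions. The other 5, among them the Ass1 promoter, had 1 skipped number in Veh between the nearest kept peaks, the same one for both Ass1 regions. Such shares also depend on how far apart kept peaks lie, which was not examined. LPS-closed regions were 5 of 69 (7.25%, interval 3.13 to 15.9%), beside 13.0% of all.

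T0-closed regions were 10 of 69 (14.5%, interval 8.07 to 24.7%), beside 18.1% of all regions, and T0-opened regions were 0 of 59 (interval up to 6.11%), beside 0.729%. The lists differed in length, and when each was cut to the 29839 highest scores, T0-closed and T0-opened regions were 2 of 59 each (3.39%). With a reciprocal overlap of 50%, T0-opened regions were 3 of 60 (5.00%). Shares over all regions were not computed at either of these settings. The 10 T0-closed peaks were weak, with a median percentile of 7.01 in Veh and the highest at 31.2. At 6 of the 10 (60.0%) the T0 numbering skipped no number, beside 62.6% of all T0-closed regions. They fell into 3 patterns. In 5 of them the peak was present with LPS but again absent from T0-LPS, at Nos2, Slc7a2, Slc2a1, Hk2 and Pfkfb3, 1 region each. In 3 the peak was in Veh alone, at Acod1 and Hk2. In the remaining 2, the Acod1 region at -3985 bp and the Ass1 region at -23917 bp, both LPS and T0-LPS held a peak. Over all regions, peaks in Veh and LPS alone made up 3.17%, peaks in Veh alone 7.73%, and regions missing from T0 alone 4.98%, against 5, 3 and 2 of the 78.

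In stimulated cells, T0-closed-in-LPS regions were 10 of 72 (13.9%, interval 7.72 to 23.7%), beside 9.97% of all regions, and T0-opened-in-LPS regions were 2 of 64 (3.12%, interval 0.861 to 10.7%), beside 3.37%. Of the 8 LPS-opened regions, 2 were absent from T0-LPS (25.0%, interval 7.15 to 59.1%), beside 47.0% of all LPS-opened regions. These were the Ass1 promoter and the Hif1a region 7201 bp downstream, which had the lowest scores of the 8 in LPS, 51 and 53. The 6 that T0-LPS retained included the Nos2 and Acod1 promoters. A peak in all lists was found at 54 of the 78 regions (69.2%, interval 58.3 to 78.4%), beside 70.2% of all. Each of these intervals includes the share over all regions.

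**Figure D3:**
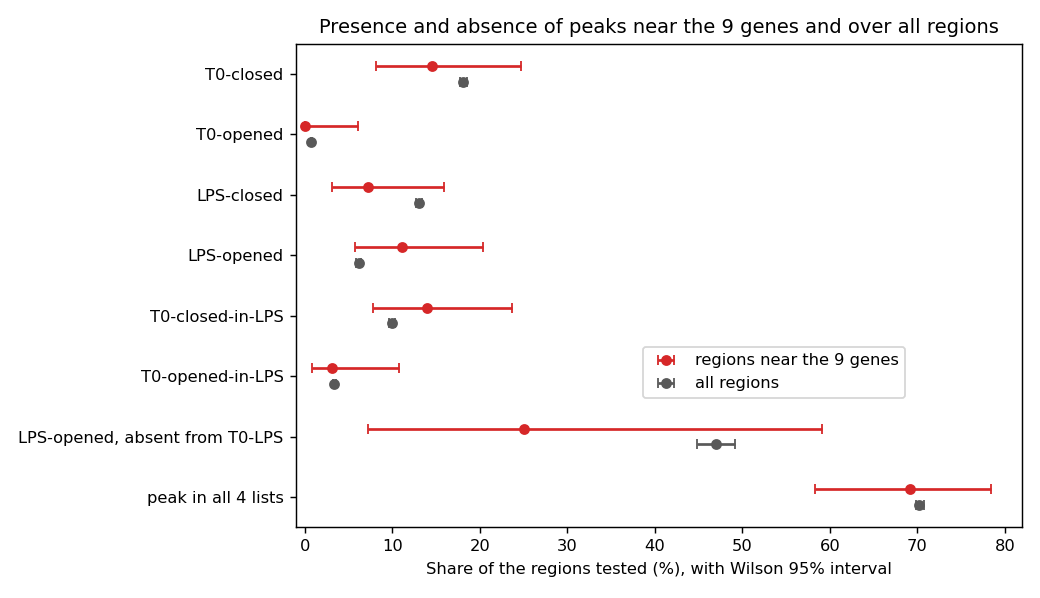
Share of regions in each class near the 9 genes (red) and over all regions (grey), in percent of the regions tested. Bars are Wilson 95% intervals for counting error only. The LPS-opened share is 11.1% near the 9 genes and 6.14% over all regions, and every red interval includes the grey value.

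By gene set, the 4 arginine genes had LPS-opened regions at 4 of 16 regions with an LPS peak (25.0%, interval 10.2 to 49.5%), Acod1 at 2 of 19 (10.5%, interval 2.94 to 31.4%), and Hif1a with the 3 glucose genes at 2 of 37 (5.41%, interval 1.5 to 17.7%), beside 6.14% of all regions. With an LPS score of at least 200, 1, 1 and 0 of these were left, namely the Nos2 region at -33676 bp and the Acod1 promoter. The 4 at arginine genes came from Nos2 and Ass1, 2 each, with none at Arg1 or Slc7a2. The 2 at Ass1 ranked low in LPS, at percentiles 0.247 and 6.54. The intervals count regions of the same gene as independent. A peak within 1 kb of a transcript start of the gene itself was found for 6 of the 9 genes in Veh and in T0, and for 8 in LPS and in T0-LPS. The difference came from Nos2, Acod1 and Ass1, which gained one with LPS, and Arg1, which lost its own. With T0-LPS, Arg1 had a weak one and Ass1 had none.

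The median shifts of the 54 shared regions were small. The median difference in percentile between T0 and Veh was -4.49 points, beside -5.28 over all shared regions. It was -1.66 between LPS and Veh (-1.94 over all) and -1.23 between T0-LPS and LPS (-1.56 over all). Lists of unequal length shift such differences, and when ranks were taken among shared regions alone the medians were 0.47, -0.79 and -0.04 points. Of the 54, 16 spanned 20 points or more (29.6%), beside 33.0% of all shared regions. Shifts of 20 points or more in size between LPS and Veh were seen at 6 of the 54 (11.1%, beside 12.1%), between T0 and Veh at 1 (1.85%, beside 9.99%) and between T0-LPS and LPS at 3 (5.56%, beside 4.91%). Between T0-LPS and T0 they were seen at 12 (22.2%, beside 13.3%), and between T0-LPS and Veh at 10 (18.5%, beside 16.5%). Of the 12, 6 were among the 15 shared Acod1 regions and 6 among the 30 of Hif1a and the glucose genes. The single shift between T0 and Veh was that of Nos2 at -4192 bp, which was -11.5 points when ranks were taken among shared regions alone. With T0 in resting cells, 50 of the 54 peaks were narrower (92.6%), beside 87.8% of all shared regions.

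**Figure D4:**
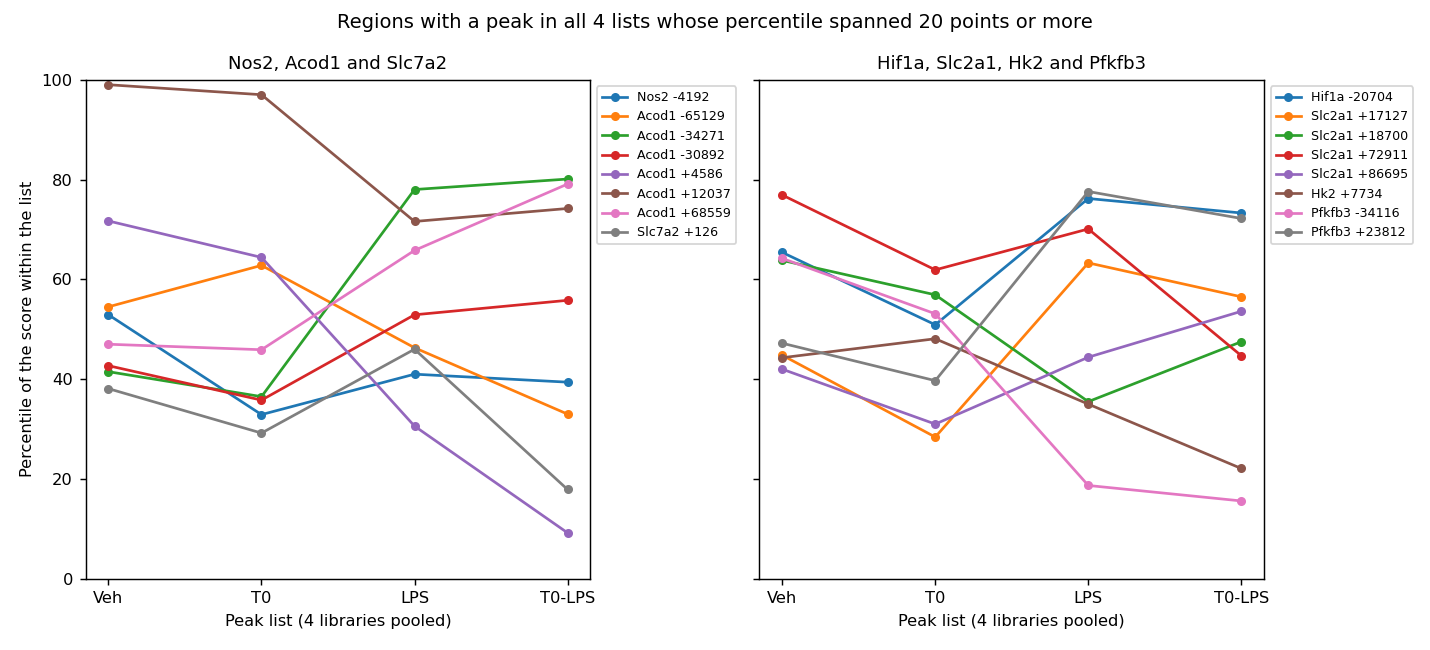
Percentile of the score in each pooled list for the 16 shared regions that spanned 20 points or more, with Nos2, Acod1 and Slc7a2 on the left and Hif1a, Slc2a1, Hk2 and Pfkfb3 on the right. Each line is a region, named by gene and distance from the TSS in bp, and lines only join values of the same region. The Acod1 region 4586 bp downstream runs from 71.7 in Veh to 9.21 in T0-LPS, and the one at -34271 bp from 41.5 to 80.1.

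Motif matches in the central 200 bp were counted over the 78 regions and set beside the 37620 regions on the main chromosomes. NF-kB was found in 3 (3.85%, beside 4.30%), AP-1 in 10 (12.8%, beside 13.4%) and PU.1 in 7 (8.97%, beside 8.55%). C/EBP was found in 19 (24.4%, beside 17.0%), the half-site in 13 (16.7%, beside 11.9%) and the hypoxia response element in 32 (41.0%, beside 34.1%). STAT GAS was found in 6 (7.69%, beside 5.52%) and ISRE in 8 (10.3%, beside 3.79%). Of the 8 LPS-opened regions, 1 held an NF-kB match in the central 200 bp (12.5%, beside 18.1% of all LPS-opened regions), at the Nos2 promoter. C/EBP matches were found in 4 (50.0%, beside 25.5%), the hypoxia response element in 3 (37.5%, beside 24.3%), the half-site in 2 (25.0%, beside 12.5%) and ISRE in 2 (25.0%, beside 8.50%). AP-1, PU.1 and STAT GAS matches were found in none, beside 14.1%, 6.10% and 6.85%. Over the whole length, NF-kB was found in 2 of the 8 (25.0%, beside 21.2%), both at Nos2, and with so few regions no order is read from these shares. A match describes letters in the sequence and not binding.

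Other genes of these pathways were counted as lists. Among 12 further arginine genes, 3 of 77 regions were LPS-opened (3.90%, interval 1.33 to 10.8%), beside 6.14% of all regions, and no gene had one within 1 kb of its TSS, beside 1.62% of all genes. Among 15 genes of itaconate and the tricarboxylic acid cycle, 9 of 148 regions were LPS-opened (6.08%, interval 3.23 to 11.2%, beside the same 6.14%), with 1 gene having one within 1 kb. Among 25 genes of glycolysis and the hypoxia response, 11 of 219 were (5.02%, interval 2.83 to 8.77%, beside the same 6.14%), again with 1 gene within 1 kb. T0-closed shares were 17.7%, 17.1% and 19.5% in the 3 lists, beside 18.1% of all regions. Only 2 LPS-opened regions near the genes of these lists had an LPS score of at least 200. One lay at -16174 bp from Nfe2l2, a transcription factor of the antioxidant response (chr2:75720576-75721054), at percentile 44.4 in LPS and 7.24 in T0-LPS and absent without LPS. The other lay 25649 bp downstream of the TSS of Sdhb, a subunit of succinate dehydrogenase, at percentile 18.1 in T0 and 35.7 in LPS and absent from Veh and T0-LPS. The strongest T0-closed region lay 9234 bp downstream of the TSS of Sms, the spermine synthase (chrX:157482901-157483204), at percentile 67.6 in Veh and 43.0 in LPS, and was absent from both lists with T0, each with 1 skipped number. The next, 78073 bp downstream of the TSS of Pgam1, a phosphoglycerate mutase of glycolysis, had a peak in Veh alone, at percentile 41.6, with no skipped number in the other lists.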

How the data were processed

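Per the study's methods, the authors trimmed adaptors with cutadapt, mapped reads with Bowtie2, discarded PCR duplicates (samtools), called peaks with MACS2 (q threshold 0.001) on the 4 libraries of a group together and kept peaks at macrophage enhancers marked by H3K27ac or H3K4me2. The deposited lists give each peak a position, a numbered name and a score, which is the authors' peak caller score, not normalized between lists. The labels name mm10 among the builds, and none of the 129556 peaks on the 21 main chromosomes passed the end of its GRCm38 chromosome. Coordinates are 1-based. Genes came from GENCODE vM21 (basic).

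Peaks of the 4 lists that overlapped by at least 1 bp were merged. Regions with several peaks took the highest score. Motifs were matched on both strands in the central 200 bp, and the 8 motifs can overlap. Of the 9 genes, the text names regions absent from at least 1 list, nearest the TSS, highest in Veh or spanning 20 percentile points. Genes of the pathway lists are named for an LPS-opened or T0-closed region scoring 200 or more. The 9 genes and the lists were chosen with earlier results of these data known. Python 3.11.15, pysam 0.24.0 and scipy 1.17.1 were used, and merging, calls and percentiles were tested on simulated lists. Alternative windows, overlaps, scores and list lengths were tried. No column of another sample was left out.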

Additional observations from a re-analysis of the deposited data

How the results depend on the processing

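No paired analysis was possible because peaks were called on pooled libraries, and replicates could not be left out for the same reason. With a window of 10 kb, 23 regions remained, 25.0% of those with an LPS peak were LPS-opened, 11.1% of those with a T0-LPS peak were T0-opened-in-LPS, and 52.2% had a peak in all 4 lists. With scores of at least 200 in the tested list, LPS-opened regions were 3.70%, LPS-closed 1.79%, T0-closed 3.57%, T0-closed-in-LPS 3.70% and T0-opened-in-LPS 0%. Of the 2 LPS-opened regions left, 0% were absent from T0-LPS, and 85.0% of regions had a peak in all 4 lists. With lists cut to the 29839 highest scores, T0-closed regions were 3.39% and T0-closed-in-LPS regions were 6.35%. T0-opened regions rose from 0 to the same 3.39% as T0-closed regions (2 of 59 each). Near the member genes, these closed shares therefore rest on low-scoring peaks, and T0-closed no longer exceeded T0-opened. Shares over all regions were not computed with the 10 kb window, the score minimum or lists of equal length. Whether member regions differ from all regions at these settings was therefore not tested. All other shares and counts of regions stayed within the interval, or 1.5 times the count, of the main value. That held with a window of 50 kb, any transcript start, single peaks, a reciprocal overlap of 50% and, chosen after seeing the data, without Acod1. Counts per gene and class moved by more than 1.5 times in 22 of 54 cases with the score minimum, 22 with lists of equal length, 15 with 10 kb, 8 with 50 kb and 5 with reciprocal overlap, all from counts of at most 3. Median percentiles of member regions in LPS and T0-LPS rose from 56.2 to 63.4 and from 57.7 to 67.4 when only regions in all 4 lists were ranked. Over whole regions, NF-kB matches rose from 3 to 6, PU.1 from 7 to 12, C/EBP from 19 to 31, the half-site from 13 to 23, the hypoxia response element from 32 to 49 and STAT GAS from 6 to 10. Chosen after seeing the data, a score of at least 200 left 1 of the 3 genes with an LPS-opened region within 1 kb of the TSS. Depth per library is unknown, so a missing peak near the score threshold cannot be told apart from a weak one.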
